A study of Mus musculus with 8 samples.

Results

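The genes described here encode 9 integrin subunits: the alpha chains Itga4, Itga6, Itgav, Itgae and Itgal and the beta chains Itgb1, Itgb2, Itgb3 and Itgb7. They were taken by symbol, through every probe set annotated to 1 of these symbols alone, which gave 26 of the 45037 probe sets and 9 of the 18193 genes in the deposited table. A probe set is a group of short oligonucleotides on the array that together report 1 transcript. Polyclonal memory CD4 T cells had been sorted from mouse spleen at day 60 after infection with the LCMV strain Armstrong, which mice clear. There were 4 groups of 2 arrays, namely Rictor-null Tfh, wild-type (WT) Tfh, Rictor-null Th1 and WT Th1 cells, and the RNA of 1 array came from 10 mice or more. Rictor belongs to mTOR complex 2, which cannot form without it. T follicular helper (Tfh) cells help B cells, and T helper 1 (Th1) cells make interferon gamma. How Rictor was deleted, in which cells, the sort gates, the strain, and the sex and age of the mice were not stated in any source used here.

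Integrins are surface receptors made of 1 alpha and 1 beta chain, through which a T cell holds on to other cells and to the extracellular matrix. They are held inactive until signals from the T cell receptor or chemokine receptors act through Rap1, talin and kindlin on the tail of the beta chain. ITGAL pairs with ITGB2 as LFA-1, which binds ICAM proteins at the immune synapse. ITGA4 pairs with ITGB1 to bind VCAM-1 or with ITGB7 to bind the gut addressin MAdCAM-1, and ITGAE, also named CD103, pairs with ITGB7 to bind E-cadherin on epithelium. ITGA6 and ITGAV form receptors for matrix proteins, ITGAV with several beta chains that include ITGB1 and ITGB3.

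Signals are linear intensities, and a difference is on the scale of log2(signal + 32). Probe sets were tested where their signal exceeded the median of the array on 2 or more of the 8 arrays. The words rose and fell are kept for a limma adjusted p under 0.05, taken over all 23725 probe sets tested. Of the 26 integrin probe sets 21 were tested, and each of the 9 genes had at least 1 of them. The 5 left out, 3 of Itgb1 and 2 of Itgav, lay under the median on all 8 arrays, at signals of 4.80 to 31.1. For each gene the brightest probe set, numbered 1, is described first. Levels are compared between groups within a probe set and never between genes.

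Array medians lay between 35.7 and 37.7. The arrays cannot tell fewer expressing cells from less RNA per cell. Within groups the 2 arrays had a Pearson r of 0.996 to 0.999 across probe sets, which are not independent replicates. The Rictor probe sets do not check the genotype: 0 of 5 fell in limma's test in either cell type, adjusted or at an unadjusted p under 0.05, 1 rose in Tfh cells, and where they lie relative to the deleted part is not given. All 6 measured CD4 T cell markers and all 7 Tfh markers were tested, and Cxcr5 was higher in Tfh cells, at 241 and 297 in Rictor-null Tfh against 52.7 and 50.04 in Rictor-null Th1 cells. It was at 183 and 179 in WT Tfh against 55.7 and 46.8 in WT Th1 cells. The Tfh markers also moved with genotype: 7 of 7 rose in Rictor-null Tfh and 5 of 7 in Rictor-null Th1 cells, and their part in the integrin results was not tested. Tbx21, which defines Th1 cells, lay between 422 and 465 on all 8 arrays, so its signal did not separate the sorted types. All 6 measured Th1 markers were tested. Of these Cxcr6 and Il18rap fell in Rictor-null Tfh relative to Rictor-null Th1 cells, by 0.58 and 0.25 (limma adjusted p = 0.0186 and 0.0205). The rest did not pass there, and none of the 6 passed between the WT lineages. Between genotypes Il18rap rose in Th1 cells, by 0.25 (limma adjusted p = 0.0241), and no other Th1 marker was called in either cell type. Of measured B cell markers 5 of 6, and of NK cell markers 4 of 5, lay under the median on all arrays. On the third principal component 2 arrays stood apart on the positive side, at 18.1 for Rictor-null Tfh replicate 2 and 11.8 for WT Th1 replicate 1. The others lay between -10.0 for WT Tfh replicate 1 and 2.97 for WT Th1 replicate 2, so 11.8 was not far beyond the lowest in size. Calls that end without those 2 arrays are given with the value of that fit.

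The comparison of Rictor-null with WT cells asks which integrin genes differ in cells labelled as lacking Rictor. In Th1 cells 4 of the 9 genes rose by their brightest probe set, namely Itgav, Itgae, Itgb1 and Itga4, and 0 fell. Over all genes 6.69% rose and 2.3% fell in this comparison. By probe sets, 7 of 21 rose (33.3%) and 0 fell, against 6.39% and 2.36% of all probe sets tested, and several of the 7 report the same gene. In Tfh cells 2 of the 9 genes rose, Itgav and Itga6, and 0 fell, where 9.01% of all genes rose and 1.46% fell. By probe sets 3 of 21 rose (14.3%) and 0 fell, against 8.46% and 1.61% of all. The 21 probe sets had a median difference of 0.18 in Th1 and 0.05 in Tfh cells, against 0.00 and 0.04 over all probe sets tested. Most probe sets called in the whole table were rises, 84% in Tfh and 73% in Th1 cells. After quantile normalization these shares were 64.5% and 59.9%, and the integrin probe sets that rose were 6 in Th1 and 0 in Tfh cells by limma's test. After quantile normalization 8 integrin probe sets had an unadjusted p under 0.05 in Tfh cells, counted in either direction.

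**Figure D1:**
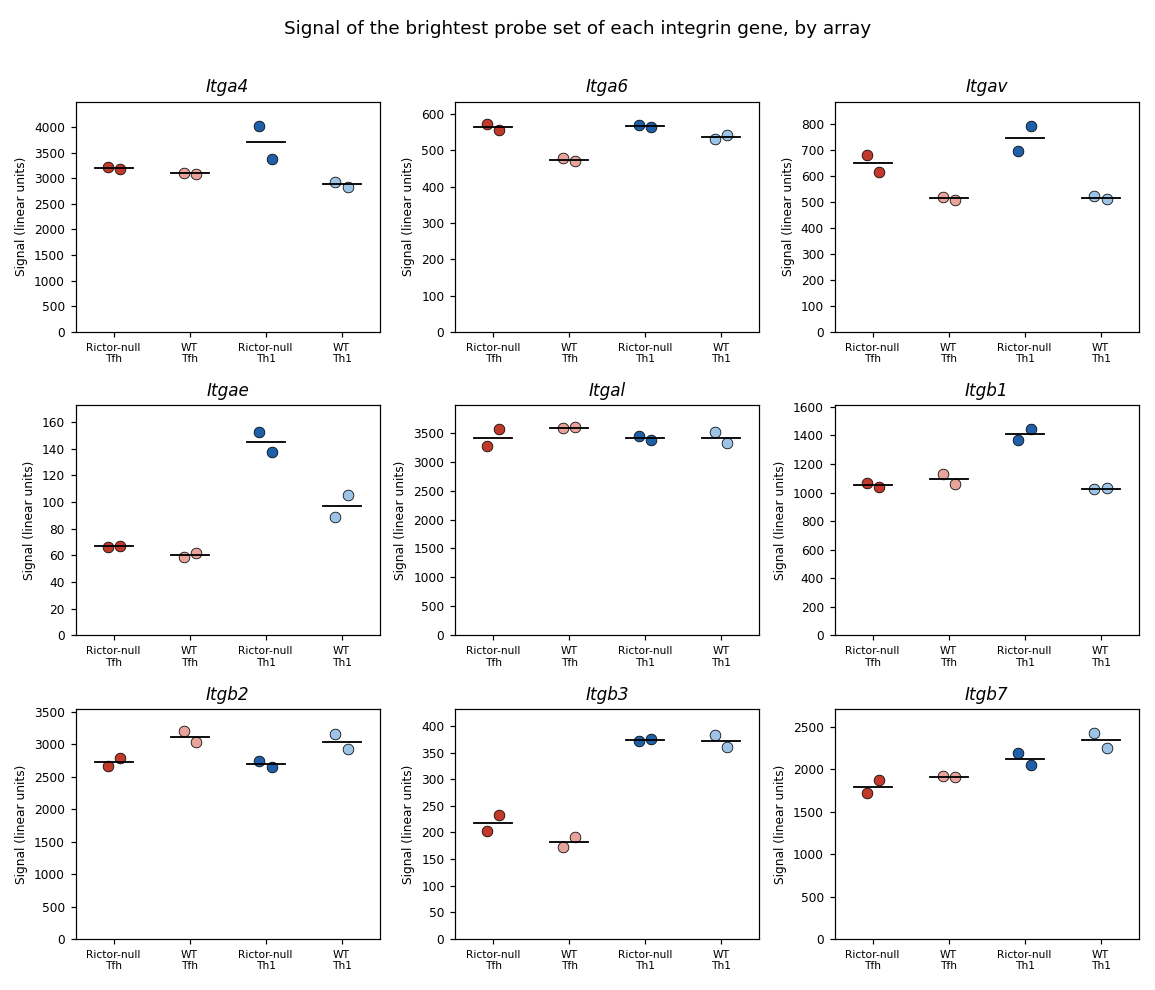
Signal of the brightest probe set of each integrin gene (y axis, linear units from 0) in Rictor-null Tfh, WT Tfh, Rictor-null Th1 and WT Th1 cells (x axis); each point is 1 array and each line the mean of 2 arrays. Itgav lay higher in Rictor-null than in WT cells of both types, Itgb1 and Itgae lay highest in Rictor-null Th1 cells, and Itgb3 lay lower in Tfh than in Th1 cells.

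Itgav encodes the alpha v chain, which binds vitronectin and fibronectin and, with some beta chains, can release active TGF beta (chromosome 2, 83722303 to 83806917, GRCm38.p6). Its brightest probe set read 698 and 793 in Rictor-null Th1 cells, against 524 and 511 in WT Th1 cells. In Tfh cells it read 681 and 617 in Rictor-null, against 521 and 508 in WT cells. Both Rictor-null arrays lay above both WT arrays in each cell type, while the WT groups overlapped each other. Itgav rose by 0.50 ± 0.074 log2 in Th1 cells (SE, n = 2 arrays per group, limma adjusted p = 0.00324), which is 1.41-fold on signal plus 32. In Tfh cells it rose by 0.32 ± 0.074 (limma adjusted p = 0.0284). The 2 other tested probe sets, both dim, were positive in both cell types without passing, at 0.28 and 0.15 in Tfh and 0.17 and 0.19 in Th1 cells. That rise in Tfh cells was undone by leaving out Rictor-null Tfh replicate 1 (0.25, limma adjusted p = 0.0654), WT Tfh replicate 1 (0.147) or WT Tfh replicate 2 (0.179), and it did not pass without a filter (0.0567) or after quantile normalization (0.0771). The Th1 call held under all 21 alternatives. Groups stood in the order Rictor-null Th1, Rictor-null Tfh, and then WT Th1 and WT Tfh together.

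Itgb1 encodes the beta 1 chain, the most widely used partner of alpha chains for matrix and VCAM-1 (chromosome 8, 128685654 to 128733579). Its brightest probe set read 1370 and 1444 in Rictor-null Th1 cells, against 1022 and 1029 in WT Th1 cells. In Rictor-null Tfh cells it read 1066 and 1036, against 1127 and 1058 in WT Tfh cells, and these 2 groups overlapped. Rictor-null Th1 cells thus stood above the other 3 groups with no overlap. Itgb1 rose by 0.44 ± 0.059 log2 in Th1 cells (SE, n = 2 arrays per group, limma adjusted p = 0.00179), under all 21 alternatives. In Tfh cells the difference was -0.05 ± 0.059 (limma adjusted p = 0.587), with a 95% interval of -0.19 to 0.08.

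The probe sets of Itgb1 did not all move by the same amount. Probe set 3 read 253 and 232 in Rictor-null Th1 against 190 and 181 in WT Th1 cells, and rose by 0.33 ± 0.061 (limma adjusted p = 0.01). It was lost without Rictor-null Th1 replicate 1 (0.28, adjusted p = 0.0822) or WT Th1 replicate 2 (0.0635). Its x suffix marks probes that can also match other transcripts. Probe set 2, of nearly the same brightness as the first, read 1115 and 1073 in Rictor-null Th1 against 1029 and 955 in WT Th1 cells. Its groups did not overlap either, but 0.14 ± 0.067 did not pass (limma adjusted p = 0.251). Probe sets 2 and 3 are annotated to the same target sequence, yet of these only probe set 3, with the x suffix, passed. Where the probe sets lie along the transcript is not used here.

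Itga4 encodes the alpha 4 chain of VLA-4 and of the gut-homing receptor (chromosome 2, 79255426 to 79333114). Its brightest probe set read 4028 and 3371 in Rictor-null Th1 cells, against 2924 and 2835 in WT Th1 cells. Rictor-null Th1 replicate 1 was the highest of all 8 arrays by a wide margin. In Tfh cells it read 3227 and 3178 in Rictor-null, against 3110 and 3087 in WT cells, close together without overlap. The rise in Th1 cells was 0.35 ± 0.079 log2 (SE, n = 2 arrays per group, limma adjusted p = 0.0251). The call needed most arrays: it was lost without Rictor-null Th1 replicate 1 (0.23, adjusted p = 0.131), WT Th1 replicate 1 (0.0894), WT Th1 replicate 2 (0.107), WT Tfh replicate 1 or 2 (0.0548 each) or both arrays that stood apart (0.0518). It also ended with the Th1 arrays alone (0.0569), without a filter (0.0653) and after quantile normalization (0.0546). In Tfh cells the difference of this probe set was 0.05 ± 0.079 (limma adjusted p = 0.738).

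Probe set 3 of Itga4 gave a clearer separation by genotype in both cell types. It read 241 and 259 in Rictor-null Th1 against 186 and 174 in WT Th1 cells, and 222 and 226 in Rictor-null Tfh against 178 and 169 in WT Tfh cells. It rose by 0.41 ± 0.062 in Th1 cells (limma adjusted p = 0.00361), a call that held under the 20 alternatives in which it was tested. In Tfh cells it rose by 0.32 ± 0.062 (limma adjusted p = 0.014). Leaving out an array undid the Tfh call in 3 cases, Rictor-null Tfh replicate 2 (adjusted p = 0.0582), WT Tfh replicate 1 (0.0787) and WT Tfh replicate 2 (0.135), as did quantile normalization (0.0531). The 3 remaining probe sets of Itga4 did not pass in either cell type and ranged from -0.19 to 0.18 in Tfh and from 0.03 to 0.21 in Th1 cells.

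Itga6 encodes the alpha 6 chain of laminin receptors (chromosome 2, 71786886 to 71858427). Its brightest probe set read 572 and 556 in Rictor-null Tfh cells, against 480 and 470 in WT Tfh cells. It read 571 and 565 in Rictor-null Th1 against 531 and 543 in WT Th1 cells. WT Tfh cells were the lowest group, and both Rictor-null groups overlapped at the top. Itga6 rose by 0.23 ± 0.054 log2 in Tfh cells (SE, n = 2 arrays per group, limma adjusted p = 0.0267), and in Th1 cells the difference was 0.08 ± 0.054 (limma adjusted p = 0.417). It no longer passed when Rictor-null Tfh replicate 2 (adjusted p = 0.0639), WT Tfh replicate 1 (0.15), WT Tfh replicate 2 (0.186) or both arrays that stood apart (0.055) were left out. Neither did it with the Tfh arrays alone (0.0625) or after quantile normalization (0.0824). Probe set 2 gave the other pattern, with 0.03 ± 0.076 in Tfh and 0.21 ± 0.076 in Th1 cells, neither past the threshold (limma adjusted p = 0.804 and 0.129). It read 292 and 244 in Rictor-null Th1 against 229 and 225 in WT Th1 cells.

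**Figure D2:**
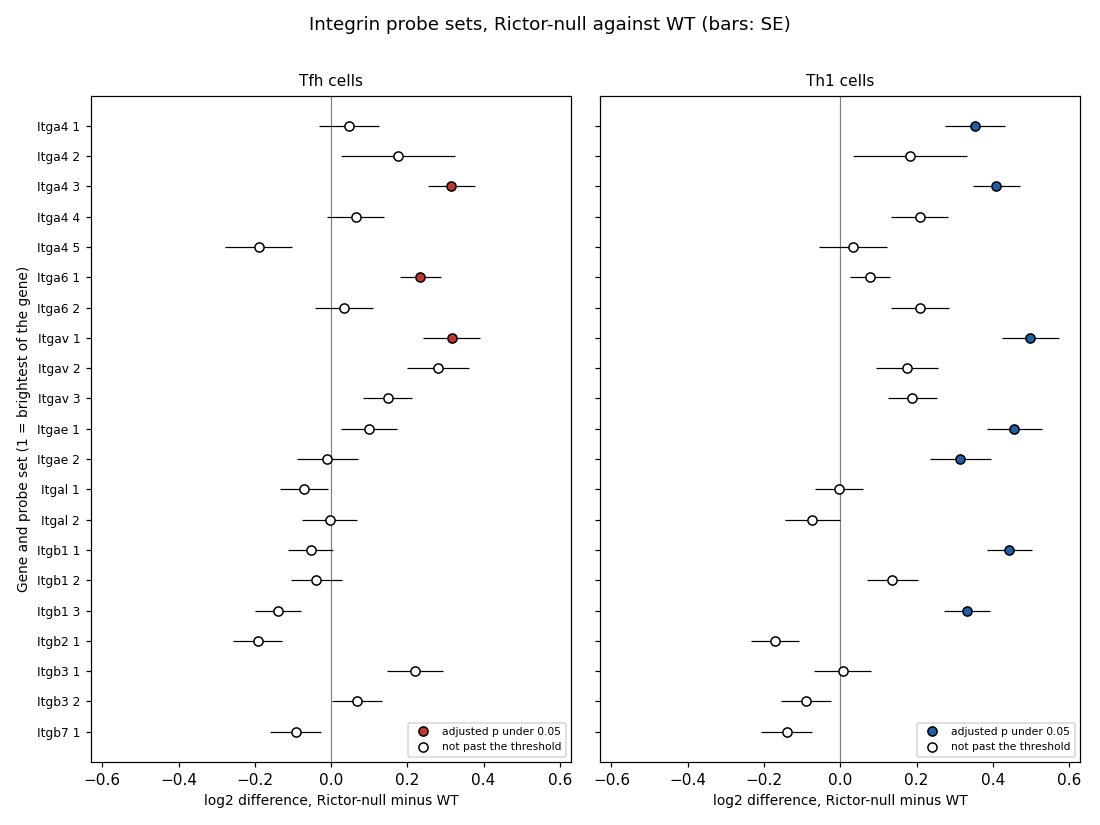
Difference of log2(signal + 32), Rictor-null minus WT (x axis), of each tested integrin probe set (y axis, 1 is the brightest of the gene) in Tfh cells (left) and Th1 cells (right). Points are estimates from 2 arrays per group, bars are SE, and filled points had a limma adjusted p under 0.05; 3 points are filled in Tfh and 7 in Th1 cells, all of them above 0.

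The promoters of 3 genes that rose in Rictor-null Th1 cells are shown because these genes moved together there. They are RefSeq sequences of GRCm38.p6 on the plus strand, from 250 bases before to 50 after the transcript start, and 4 of the 9 genes matched the table used. They lie at chr8:128685404-128685703 for Itgb1, chr2:79255176-79255475 for Itga4 and chr2:83724147-83724446 for Itgav. The start used for Itgav lies 2094 bases inside the annotated gene, and that used for Itgb7, which is not printed, 1470 bases inside. Capitals mark matches to the motifs searched, on either strand.
Itgb1: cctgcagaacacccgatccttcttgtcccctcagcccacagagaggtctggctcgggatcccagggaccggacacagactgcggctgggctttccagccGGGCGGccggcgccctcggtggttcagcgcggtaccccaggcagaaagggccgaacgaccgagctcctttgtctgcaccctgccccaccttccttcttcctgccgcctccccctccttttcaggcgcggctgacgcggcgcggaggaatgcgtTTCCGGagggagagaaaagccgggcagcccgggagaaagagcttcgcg
Itga4: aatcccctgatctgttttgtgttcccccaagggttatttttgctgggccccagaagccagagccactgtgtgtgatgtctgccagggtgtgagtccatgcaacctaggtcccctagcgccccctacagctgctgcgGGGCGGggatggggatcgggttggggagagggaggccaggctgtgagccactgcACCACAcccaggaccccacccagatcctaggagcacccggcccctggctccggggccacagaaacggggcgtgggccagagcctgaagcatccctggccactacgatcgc
Itgav: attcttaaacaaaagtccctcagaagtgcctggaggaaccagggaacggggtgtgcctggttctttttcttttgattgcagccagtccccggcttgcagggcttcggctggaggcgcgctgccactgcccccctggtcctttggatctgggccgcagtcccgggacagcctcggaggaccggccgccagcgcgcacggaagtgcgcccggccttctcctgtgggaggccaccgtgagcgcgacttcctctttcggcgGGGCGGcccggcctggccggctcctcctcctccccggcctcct
The letters searched were CCGGAA (ETS core), TGTGGT (RUNX), GTAAACA (FOXO), AGGTGTGA (T-box), GGGCGG (GC box) and TGACGTCA (CRE). No searched motif overlapped another in the sequences printed. Each of the 3 promoters holds 1 GC box, starting at -151 in Itgb1, -114 in Itga4 and 8 in Itgav, where 1 is the transcript start. A GC box is found in 35.7% of the 32851 promoters of this length. Itgb1 also holds an ETS core at 3 (14.9% of promoters) and Itga4 a RUNX match at -60 (16.8%). The letters of the FOXO (3.65%), T-box (1.28%) and CRE (1.79%) motifs are not in these windows. The window of Itgb7, which did not rise, held 0 of the motifs, but its start lies 1470 bases inside the gene. Itgae, which also rose in Th1 cells, had no sequence to search. GC content was 67.3% for Itgb1, 64.3% for Itga4 and 67.3% for Itgav, against 56.3% for Itgb7 and a median of 52.7% over all. Whether motifs or GC content go with the rises was not tested, and these few windows cannot show it.

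Itgae encodes the alpha E chain, known as CD103, a mark of T cells that stay in epithelium and of some regulatory T cells (chromosome 11, 73090505 to 73147449). Its brightest probe set, whose s suffix marks probes that can also match other transcripts, was dim. It read 152 and 138 in Rictor-null Th1 cells against 89.0 and 105 in WT Th1 cells. In Rictor-null Tfh cells it read 66.6 and 67.1, against 58.7 and 61.9 in WT Tfh cells. No 2 groups overlapped, in the order Rictor-null Th1, WT Th1, Rictor-null Tfh and WT Tfh. Itgae rose by 0.46 ± 0.073 log2 in Th1 cells (SE, n = 2 arrays per group, limma adjusted p = 0.00505). In Tfh cells the difference was 0.10 ± 0.073 (limma adjusted p = 0.403). Of the alternatives, only leaving out Rictor-null Th1 replicate 1 undid the Th1 call (0.40, adjusted p = 0.0538).

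The second probe set of Itgae, dimmer still and without the s suffix, moved the same way in Th1 cells. It read 69.4 and 66.6 in Rictor-null Th1 against 50.1 and 46.7 in WT Th1 cells, and rose by 0.31 ± 0.081 (limma adjusted p = 0.0419). That call ended without any 1 of the 4 Th1 arrays, with adjusted p of 0.194 and 0.122 without Rictor-null Th1 replicates 1 and 2 and of 0.117 and 0.152 without WT Th1 replicates 1 and 2. It also ended without both arrays that stood apart (0.056), with array weights (0.0594) and without a filter (0.095). In Tfh cells this probe set had -0.01 ± 0.081.

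Markers of other cells that carry CD103 were read beside Itgae. The summed signal of 5 measured regulatory T cell markers, 4 of them tested, was 3591 to 3751 in Rictor-null Th1 against 2090 to 2202 in WT Th1 cells. It was 4031 to 4069 in Rictor-null Tfh against 2415 to 2433 in WT Tfh cells, where Itgae did not pass. Ctla4 and Ikzf2, which activated T cells also express, gave most of these sums and rose in both cell types. Il2ra had 0.18 in Th1 and 0.12 in Tfh cells and did not pass (limma adjusted p = 0.0699 and 0.19). Gpr83 did not pass either, with 0.15 in Th1 and -0.14 in Tfh cells (limma adjusted p = 0.148 and 0.166). Foxp3, which defines regulatory T cells, was not tested, with 35.0 and 27.5 in Rictor-null Th1 against 16.9 and 23.7 in WT Th1 cells. In Tfh cells it read 27.5 and 41.5 in Rictor-null against 18.7 and 22.9 in WT cells. The part of regulatory T cells in the Itgae result was not tested. The 4 CD8 T cell markers summed to 262 to 263 in Rictor-null Th1 against 266 to 276 in WT Th1 cells, a sum to which Crtam gave the most, and 0 of the 4 were called by limma there or had an unadjusted p under 0.05. In Rictor-null Tfh cells Cd8b1 rose by 0.28 (limma adjusted p = 0.0179), and the part of CD8 T cells was not tested either.

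Itgb7 encodes the beta 7 chain, the partner of both ITGAE and ITGA4 in gut homing (chromosome 15, 102215994 to 102233405). Its single probe set read 2184 and 2052 in Rictor-null Th1 cells, against 2427 and 2249 in WT Th1 cells. In Rictor-null Tfh cells it read 1718 and 1866, against 1918 and 1905 in WT Tfh cells. Rictor-null arrays lay below WT arrays in both cell types, opposite to its partners Itgae and Itga4 in Th1 cells, but neither difference passed. It was -0.14 ± 0.067 in Th1 cells (limma adjusted p = 0.24, 95% interval -0.29 to 0.01) and -0.09 ± 0.067 in Tfh cells (limma adjusted p = 0.395, 95% interval -0.24 to 0.06).

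Itgal and Itgb2 encode the alpha and beta chains of LFA-1 (chromosome 7, 127296139 to 127335137, and chromosome 10, 77530329 to 77565708). Itgal read 3261 and 3568 in Rictor-null Tfh against 3572 and 3595 in WT Tfh cells, and 3433 and 3363 in Rictor-null Th1 against 3508 and 3312 in WT Th1 cells. Its 8 arrays lay between 3261 and 3595, the narrowest span of the 9 genes as a ratio of highest to lowest. The genotype difference was -0.07 ± 0.063 in Tfh (95% interval -0.21 to 0.07) and 0.00 ± 0.063 in Th1 cells (95% interval -0.15 to 0.14). A dimmer probe set of Itgal had -0.004 ± 0.072 in Tfh and -0.07 ± 0.072 in Th1 cells (limma adjusted p = 0.982 and 0.58). Itgb2, which also pairs with the alpha chains of myeloid cells, read 2662 and 2788 in Rictor-null Tfh against 3199 and 3040 in WT Tfh cells. It read 2748 and 2644 in Rictor-null Th1 against 3156 and 2927 in WT Th1 cells. Rictor-null arrays lay below WT arrays in both cell types, yet -0.19 ± 0.063 in Tfh and -0.17 ± 0.063 in Th1 cells did not pass (limma adjusted p = 0.0847 and 0.137). The 10 myeloid markers measured, 4 of them under the median on all arrays, summed to 360 to 406 in Rictor-null Tfh against 333 to 353 in WT Tfh cells. They summed to 298 to 308 in Rictor-null Th1 against 289 to 313 in WT Th1 cells. Of these markers Cd68 rose in Tfh cells, by 0.38 ± 0.081 (limma adjusted p = 0.019), and no other was called between genotypes in either cell type. The 95% intervals of Itgb2, -0.33 to -0.05 in Tfh and -0.31 to -0.03 in Th1 cells, are not corrected for the number of probe sets tested.

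Itgb3 encodes the beta 3 chain, the partner of ITGAV and, in platelets, of ITGA2B (chromosome 11, 104608000 to 104670476). Its brightest probe set read 204 and 233 in Rictor-null Tfh against 174 and 192 in WT Tfh cells, with no overlap, and the difference of 0.22 ± 0.074 did not pass (limma adjusted p = 0.0896). Without Rictor-null Tfh replicate 1 it was 0.31 (adjusted p = 0.0277). In Th1 cells it read 371 and 375 in Rictor-null against 382 and 361 in WT cells, which overlapped, with a difference of 0.01 ± 0.074 (limma adjusted p = 0.971). The dimmer probe set of Itgb3 had 0.07 ± 0.065 in Tfh and -0.09 ± 0.065 in Th1 cells, without passing (limma adjusted p = 0.529 and 0.435).

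The comparison of Tfh with Th1 cells asks which integrin genes mark the memory lineages within a genotype. By the brightest probe set 3 of 9 genes fell in Rictor-null Tfh cells relative to Rictor-null Th1 cells, namely Itgae, Itgb3 and Itgb1, and 0 rose, where 5.83% of all genes fell and 2.92% rose. In WT cells 3 of 9 fell, namely Itgb3, Itgae and Itgb7, and 0 rose, where 8.21% of all genes fell and 2.01% rose. By probe sets 6 of 21 fell in Rictor-null (28.6%) and 3 of 21 in WT cells (14.3%), against 6.06% and 7.09% of all probe sets tested. None of the 21 rose in either genotype, where 4.22% and 2.31% of all did. Of all calls, 41.1% were rises in Rictor-null and 24.6% in WT cells. After quantile normalization these shares were 51.1% and 45.6%, and after median scaling the Rictor-null share was 30.8%. Probe set 4 of Itga4 had 0.22 in WT cells without passing (limma adjusted p = 0.0865), but it rose in WT Tfh cells under several alternatives. Among them were quantile normalization (0.28, limma adjusted p = 0.0444), array weights (0.22, 0.029) and the WT arrays alone (0.22, 0.0445). The Rictor-null and the WT arrays of each cell type also enter the genotype comparisons above, so the values are not independent of those.

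Itgb3 differed most between the WT lineages among the 9 genes. Its Tfh arrays, at 174 to 233, all lay under its Th1 arrays, at 361 to 382. The difference was -0.70 ± 0.074 in Rictor-null cells (limma adjusted p = 0.000685) and -0.91 ± 0.074 in WT cells (limma adjusted p = 0.000267), and both calls held under all 21 alternatives. Its other probe set was dim, at 44.6 to 60.1 over all arrays, and gave 0.01 ± 0.065 in Rictor-null and -0.15 ± 0.065 in WT cells without passing. Platelet and megakaryocyte markers, whose cells also carry ITGB3, were read beside it: 8 of 8 were measured, Pf4 and Ppbp lay under the array median on all 8 arrays, and 0 of the 4 tested were called by limma or had an unadjusted p under 0.05. Their sum was 359 to 360 in Rictor-null Tfh against 347 to 379 in Rictor-null Th1 cells, and 407 to 412 in WT Tfh against 357 to 377 in WT Th1 cells.

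Itgae had the largest difference between Rictor-null lineages among the 9 genes, -0.84 ± 0.073 (limma adjusted p = 0.000224), and this call held under the 20 alternatives in which it was tested. In WT cells it was -0.48 ± 0.073 (limma adjusted p = 0.00653), a call that ended without WT Tfh replicate 1 (0.0899) or WT Tfh replicate 2 (0.0566). Probe set 2 fell by 0.46 in Rictor-null cells (limma adjusted p = 0.00787, or 0.0635 if Rictor-null Th1 replicate 1 was left out) and had -0.14 ± 0.081 in WT cells (limma adjusted p = 0.278).

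Itgb1 was lower in Tfh than in Th1 cells of Rictor-null mice, with a difference of -0.41 ± 0.059 (limma adjusted p = 0.00332) and, for probe set 3, of -0.47 ± 0.061 (limma adjusted p = 0.00187), called under every alternative in which it was tested. In WT cells these probe sets had 0.09 ± 0.059 and 0.00 ± 0.061. Itgb7 fell in WT Tfh relative to WT Th1 cells, with -0.29 ± 0.067 (limma adjusted p = 0.0334), and had -0.24 ± 0.067 in Rictor-null cells (limma adjusted p = 0.0542). That WT difference of Itgb7 failed to pass without WT Tfh replicate 1 (0.192), WT Tfh replicate 2 (0.179), WT Th1 replicate 1 (0.177), WT Th1 replicate 2 (0.063) or both arrays that stood apart (0.0802), and after quantile normalization (0.0557). The Rictor-null difference passed under 6 alternatives, for example without both arrays that stood apart (-0.30, adjusted p = 0.0346).

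Probe set 5 of Itga4, the dimmest of that gene, fell by 0.35 in Rictor-null Tfh relative to Rictor-null Th1 cells (limma adjusted p = 0.0349). It read 53.9 and 39.6 in Rictor-null Tfh against 65.3 and 71.2 in Rictor-null Th1 cells. The call was lost when 1 of several arrays was left out, namely Rictor-null Tfh replicate 2 (-0.22, adjusted p = 0.136), Rictor-null Th1 replicate 1 (0.107), Rictor-null Th1 replicate 2 (0.158), either WT Tfh array (0.07) or both arrays that stood apart (0.0862). It also ended with the Rictor-null arrays alone (0.0869) and without a filter (0.09). Its 4 brighter probe sets ranged from -0.20 to 0.08 without passing. Itgav, Itga6, Itgal and Itgb2 did not pass between the lineages by any probe set in either genotype, although Itga6 did under some alternatives, such as no filter for probe set 1 in WT cells (-0.17, adjusted p = 0.0441).

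**Figure D3:**
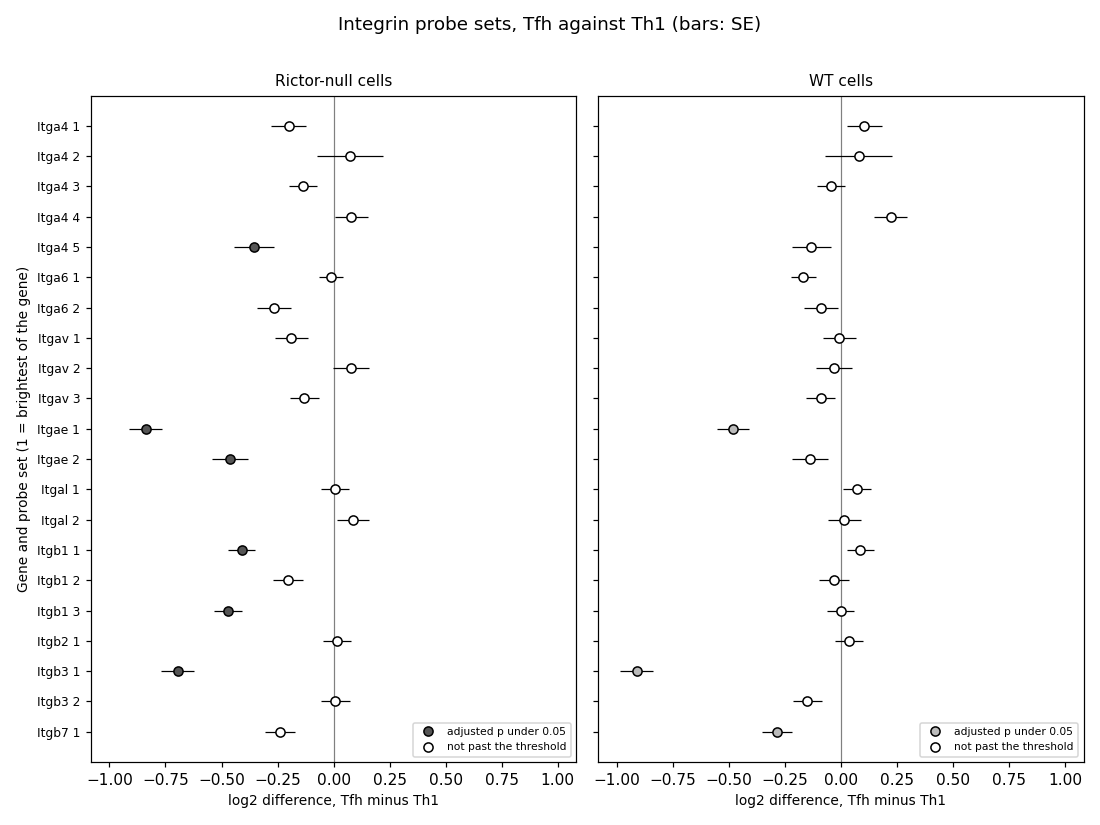
Difference of log2(signal + 32), Tfh minus Th1 (x axis), of each tested integrin probe set (y axis, 1 is the brightest of the gene) in Rictor-null cells (left) and WT cells (right). Points are estimates from 2 arrays per group, bars are SE, and filled points had a limma adjusted p under 0.05; the brightest probe sets of Itgb3 and Itgae lie to the left in both genotypes, and that of Itgb1 in Rictor-null cells.

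Whether the effect of genotype differed between Tfh and Th1 cells was tested directly, as the Tfh difference minus the Th1 difference. Itgb1 passed, with -0.50 ± 0.084 (SE, n = 2 arrays per group, limma adjusted p = 0.0323) and -0.47 ± 0.086 for probe set 3 (limma adjusted p = 0.0395). These were 2 of 21 integrin probe sets (9.52%), where 0.426% of all probe sets tested were called in this direction and 0.83% in the other. By genes it was 1 of 9, where 0.294% and 0.722% of all genes were. Leaving out any 1 array but Rictor-null Tfh replicate 1 ended both calls. For the brightest probe set the adjusted p was then 0.0688 to 0.221 and the estimate -0.54 to -0.45. Without both arrays that stood apart neither passed, at -0.47 (adjusted p = 0.0721) for the brightest and -0.51 (adjusted p = 0.0588) for probe set 3. For Itgae the difference was -0.36 ± 0.103 (limma adjusted p = 0.136), for Itga4 -0.31 ± 0.112 (0.207), for Itgav -0.18 ± 0.104 (0.369) and for Itga6 0.16 ± 0.076 (0.307). Their rises are therefore not shown to differ between the cell types.

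The rest of the integrin pathway was followed through lists of related genes, each gene by its brightest probe set. Of the other integrin subunits 9 of 15 measured were tested. Itga1 and Itga7 rose in both cell types, and the other 7 did not pass, where 9.01% of all genes rose in Tfh and 6.69% in Th1 cells. Itga1, the alpha chain of a collagen receptor, read 78.3 and 89.7 in Rictor-null Th1 against 43.7 and 43.8 in WT Th1 cells, and 50.4 and 55.9 in Rictor-null Tfh against 34.3 and 39.3 in WT Tfh cells. Its difference was 0.61 ± 0.070 in Th1 and 0.31 ± 0.070 in Tfh cells (limma adjusted p = 0.000713 and 0.0249). Itga7, the alpha chain of a laminin receptor, rose by 0.72 ± 0.082 in Th1 and 0.60 ± 0.082 in Tfh cells (limma adjusted p = 0.000762 and 0.00232). Itgb8, a partner of ITGAV that takes part in releasing TGF beta, was not tested, since it lay above the median on 1 of 8 arrays, and is named after its values were seen. It read 42.9 and 35.1 in Rictor-null Tfh against 10.04 and 10.96 in WT Tfh cells, and 26.2 and 25.9 in Rictor-null Th1 against 9.64 and 8.55 in WT Th1 cells. The median difference of the list was -0.02 in Tfh and -0.06 in Th1 cells, against 0.04 and 0.00 over all genes tested.

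Of 21 tested genes that control integrin activation, 2 rose and 1 fell in Tfh cells, where 9.01% of all genes rose and 1.46% fell, so the share that rose was near that of all genes. Skap1, an adaptor that links the T cell receptor to Rap1, rose by 0.24 ± 0.054 and Rasa3, a GTPase-activating protein for Ras and Rap1, by 0.21 ± 0.058 (limma adjusted p = 0.0246 and 0.0482). Rasgrp1, an exchange factor for Ras, fell by 0.29 (limma adjusted p = 0.0428). Further probe sets of Skap1 gave 0.10 each and another of Rasgrp1 -0.01, without passing. In Th1 cells 0 of 21 passed limma's test, and 2 had an unadjusted p under 0.05. The list's median was 0.00 in Tfh and -0.04 in Th1 cells.

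Of 20 tested genes of the adhesion complex, which ties integrin tails to actin, 2 fell in Tfh cells, and 1 rose and 1 fell in Th1 cells. Of all genes 9.01% rose and 1.46% fell in Tfh cells, and 6.69% rose and 2.3% fell in Th1 cells, so the Th1 counts were near the shares of all genes. Actn1, an actin crosslinker that binds beta tails, read 616 and 636 in Rictor-null Th1 against 1031 and 1041 in WT Th1 cells. It fell by 0.70 in Th1 cells (SE 0.057, limma adjusted p = 0.00011). In Tfh cells it fell by 0.23 (adjusted p = 0.0325). Its 2 other tested probe sets gave -0.33 (adjusted p = 0.034) and -0.12 in Th1 cells, and 0.04 and -0.09 in Tfh cells. Tns3, a tensin, fell by 0.26 in Tfh cells (adjusted p = 0.0402). Zyx, which encodes the focal adhesion protein zyxin, rose by 0.38 ± 0.089 in Th1 cells (adjusted p = 0.0303), where another probe set gave 0.13 without passing. The list's median was 0.01 in Tfh and -0.01 in Th1 cells.

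Among ligands and other adhesion molecules 7 of 13 measured were tested, of which 2 rose and 1 fell in Tfh cells and 2 rose in Th1 cells. The shares of all genes were 9.01% higher and 1.46% lower in Tfh cells and 6.69% higher in Th1 cells. Icam1, the ligand of LFA-1 that T cells can also carry, read 626 and 632 in Rictor-null Th1 against 346 and 358 in WT Th1 cells, and 554 and 544 in Rictor-null Tfh against 337 and 326 in WT Tfh cells. It rose by 0.78 ± 0.054 in Th1 and 0.68 ± 0.054 in Tfh cells (limma adjusted p = 4.76e-05 and 0.000127), while both chains of LFA-1 did not pass. Lgals3, which encodes a lectin that binds sugars on integrins, rose by 0.93 ± 0.062 and 0.74 ± 0.062 (limma adjusted p = 3.78e-05 and 0.000158). Cd44, the hyaluronan receptor, fell by 0.20 in Tfh cells (limma adjusted p = 0.0429), where its 2 other tested probe sets gave -0.08 and 0.15. The list's median was 0.13 in Tfh and 0.10 in Th1 cells.

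TGF beta induces Itgae in T cells, and ITGAV can release it, so its pathway was read beside them. Of 15 tested genes 4 rose and 1 fell in Tfh cells, and 3 rose and 1 fell in Th1 cells, against the 9.01% and 1.46% of all genes in Tfh and 6.69% and 2.3% in Th1 cells. Tgif1, a repressor that acts with SMAD proteins, rose by 0.64 ± 0.080 in Th1 and 0.70 ± 0.080 in Tfh cells (limma adjusted p = 0.00126 and 0.000926). Tgfbr3, a co-receptor, fell by 0.54 in Th1 and by 0.29 in Tfh cells (limma adjusted p = 0.00284 and 0.043). Smad7, the inhibitory SMAD, rose in Th1 cells by 0.27 ± 0.055 and Pmepa1, a target gene that dampens the signal, by 0.37 ± 0.090 (limma adjusted p = 0.0178 and 0.0356). A second probe set of Pmepa1 passed at 0.34, and one of Smad7 gave 0.28 (adjusted p = 0.0733). In Tfh cells the ligand gene Tgfb1 rose by 0.36 ± 0.065 and the SMAD repressor genes Skil and Ski by 0.34 ± 0.071 and 0.25 ± 0.059 (limma adjusted p = 0.0096, 0.0183 and 0.0322). Of these, another probe set of Tgfb1 gave 0.03 and another of Ski -0.04, while that of Skil passed at 0.27. The list's median was 0.14 in Tfh and 0.05 in Th1 cells.

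**Figure D4:**
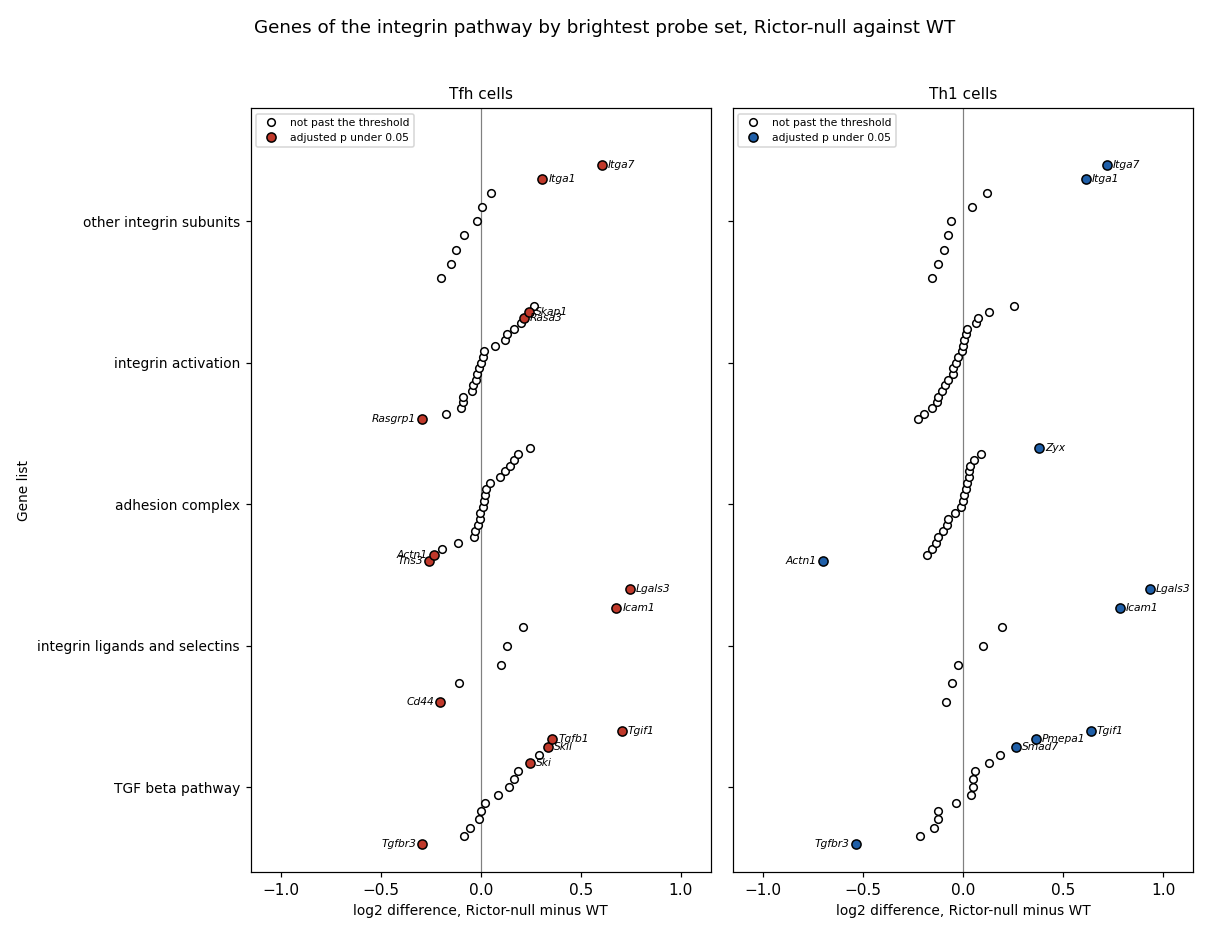
Difference of log2(signal + 32), Rictor-null minus WT (x axis), of tested genes in 5 lists related to integrins (y axis), in Tfh cells (left) and Th1 cells (right). Each point is a gene by its brightest probe set, sorted within its list, and filled points, named, had a limma adjusted p under 0.05; Itga1, Itga7, Icam1, Lgals3 and Tgif1 lie to the right in both cell types, and Actn1 and Tgfbr3 to the left.

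The genes whose pattern over the 8 arrays was most like each integrin gene were looked up among 10632 named genes, as a description. For Itgb3 the nearest were Fam241a, Ap5m1 and Numb (Pearson r of 0.992, 0.987 and 0.987), and 339 genes had r over 0.9. Itgae stood nearest to Iqgap2, Syne2 and Tfrc (r of 0.995 each), Itgav to Topors, Frmd4b and Arfgef1 (0.990, 0.990 and 0.986), and Itgb7 to Ppp1r15a, S1pr4 and Fbxw4 (0.995, 0.987 and 0.986). Those nearest to Itgb1 were Cep192, Cdyl and Tmsb4x (0.985, 0.969 and 0.966), to Itga4 Naa16, Raver1 and Traf1 (0.978, 0.971 and 0.956), and to Itga6 Fam118a, Rnf10 and Fzd5 (0.982, 0.977 and 0.975). For Itgb2 and Itgal the nearest genes, Tpbpb, Fhit and Adam23 (0.987, 0.968 and 0.961) and Igfbpl1, Sema6a and Npy (0.949, 0.936 and 0.935), were dim, at signals of 32.3 to 54.0. The points of each correlation are 8 arrays in 4 groups and share their normalization.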

How the data were processed

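Affymetrix arrays of 8 samples were used, with biotin-labelled cRNA made from 100 ng of total RNA, per the labels' protocols. The deposited values are probe set signals, an intensity on a linear scale. MAS5 and RMA are listed in the submitters' processing notes, with no version and no statement of their use, and how the authors scaled the arrays to each other was not stated. Detection calls were not used. Depth does not apply, and 2 arrays per group limit the precision.

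From these values log2(signal + 32) was computed. Of 45037 probe sets, 34945 had 1 symbol, 932 several and 9160 none in the platform annotation, and none of those with several named an integrin gene described here. Probe sets above their array's median on at least 2 arrays were kept (23725, with 11214 genes by brightest probe set). Group means over all 8 arrays were estimated in R 4.3.3 by limma 3.58.1 (eBayes defaults, 4 residual and 5.37 prior degrees of freedom), with Benjamini-Hochberg adjustment over all probe sets tested. Errors are SE from this fit. An exact permutation of 2 arrays against 2 cannot go below a two-sided p of 0.333, so none was run. Other scalings, filters, pseudocounts and sets of arrays were tried, with effects given in the closing section. Replicates are pools labelled as biological. The p-values rest on 1 spread per probe set, estimated over the 4 groups together and moderated towards that of all probe sets tested. They do not measure the spread between the 2 pools of a single group.

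The genes and lists were chosen with earlier results of these data known. Named are all 9 genes with their probe sets, up to 4 genes called per list and genotype comparison, the marker lists' defining genes, and the 3 genes nearest in pattern. Genes without a probe set of their own symbol were not used here. Figures were drawn with matplotlib 3.10.9.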

Additional observations from a re-analysis of the deposited data

Results flagged for a closer look

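The effect of the Rictor-null genotype on Itgb1 differed between Tfh and Th1 cells by limma's test of that difference, with 2 arrays per group. The Tfh difference minus the Th1 difference was -0.50 for the brightest probe set and -0.47 for probe set 3 (limma adjusted p = 0.0323 and 0.0395). The call was lost under 11 of 20 alternatives for the brightest probe set and under 12 of 19 for probe set 3. The brightest probe set had -0.05 in Tfh and 0.44 in Th1 cells, and probe set 3 had -0.14 and 0.33. Probe set 2 of the same gene gave -0.18 ± 0.095 (limma adjusted p = 0.346).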

How the results depend on the processing

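Each comparison was recomputed under changes of scaling, filter, pseudocount, variance prior, array weights, arrays in the fit and the replicate number, and without each array. Of 21 integrin differences called, 8 held under every alternative and 0 changed sign. Of the 84 uncalled, 11 passed under at least 1 alternative, and 31 changed sign while uncalled. The 3 integrin probe sets called between genotypes in Tfh cells were 0 after quantile normalization, 1 with a replicate block, and 0 to 4 without 1 array each. The 7 in Th1 cells were 3 to 7 without 1 array each. Between the lineages, the 3 in WT cells were 5 with array weights and 1 to 4 without 1 array each, and the 6 in Rictor-null cells were 3 with the stricter filter, which tests fewer dim probe sets, and 4 to 7 without 1 array each. The 2 calls of the difference between genotype effects became 0 without a filter, 0 with a pseudocount of 8, 0 with a replicate block, 0 without both arrays that stood apart, 1 with the stricter filter, and 0 to 2 without 1 array each. With the stricter filter probe set 3 of Itgb1 was still tested for that difference, with -0.47 (limma adjusted p = 0.0532). The cause of these changes was not tested. The fit on 1 probe set per gene gave counts of genes alone, and beside limma's counts of 0 there were 3 to 8 integrin probe sets with an unadjusted p under 0.05.

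The replicate number does not pair the samples in the labels, and deviations of same-numbered arrays correlated at -0.53 to 0.31 over 6 pairs of groups, so the replicate block is a check alone. Over the whole table, calls in Tfh cells (2387) were 1472 with the stricter filter, 1521 without both arrays that stood apart and 533 to 4420 without 1 array each. Those in Th1 cells (2075) were 1333 with the stricter filter and 816 to 2862 without 1 array. Lineage calls in Rictor-null cells (2440) were 1518 with the stricter filter, 1495 with array weights, 1122 with the 4 arrays alone and 898 to 3292 without 1 array. In WT cells (2230) they were 1306, 4898 and 3391 under the same settings, 1217 with a replicate block and 207 to 3698 without 1 array. Calls of the difference between genotype effects (298) were 77 without a filter, 101 with the stricter filter, 185 with a pseudocount of 8, 178 with a replicate block and 14 to 2245 without 1 array.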
